A study of Rattus norvegicus with 3 samples.

Results

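This comparison set the thoracic aorta of Sprague Dawley rats dosed with allylamine at 70 mg/kg for 20 days against the aorta of Sprague Dawley rats dosed with water at 1 ml/kg for the same 20 days. Each group had 1 oligonucleotide array of total RNA, and another array of rats dosed with allylamine at 35 mg/kg for 20 days entered the scaling and is shown beside the others. Both allylamine arrays share the single control array. The age and the sex of the rats, and whether an array held RNA of 1 animal or of a pool, are not stated in the labels. The arrays were chosen by their labels. Their intensities were scaled to a common median, and a probe set was measured when its scaled intensity lay above the 40th percentile of all values, 188, on both the 70 mg/kg and the control array. This left 2462 of the 4736 named genes, on 3062 of 7006 probe sets. A gene's value is the median, over its measured probe sets, of the log2 difference of 70 mg/kg minus control, so 1 stands for a doubling and a minus sign for a lower intensity at 70 mg/kg. Because each group is a single array, differences carry no p-value and no animal-to-animal error, and a single array per group limits how precisely any of them is known.

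Allylamine is an unsaturated amine that is toxic to the heart and to arteries. Vascular smooth muscle holds a semicarbazide-sensitive amine oxidase that turns it into acrolein, hydrogen peroxide and ammonia, and acrolein reacts with glutathione and with proteins. The thoracic aorta is an elastic artery. Its media is layered smooth muscle and elastin, its inner face is endothelium, and its outer coat holds fibroblasts, nerves and fat, so a difference in tissue RNA may come from fewer cells of a type or from less RNA per cell, and the arrays cannot tell these apart.

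The arrays carried limited information on single genes, and this bears on every value below. The 70 mg/kg and control arrays correlated with r = 0.48 over the log2 values of the 8740 aortic probe sets. The 9 probe sets for bacterial and phage transcripts, which are added to the hybridisation mix and not made by the rat, were 18.1 to 51.3 times as bright at 70 mg/kg as in control, and the spread of the aortic probe sets, from the 5th to the 95th percentile, was 5.22 on the log2 scale against 6.58. Within an array, probe sets made from different sequences of the same gene ranked almost independently in brightness, with r = 0.09 in control and 0.08 at 70 mg/kg over 2439 pairs. The 12 probe sets of the smooth muscle markers, which define the tissue, had a median rank of 59.6% of the array in control and 61.1% at 70 mg/kg, and 8 and 9 of them lay above the floor, against 60.2% and 60.7% of all named probe sets. As a list, the markers that define an artery were thus little brighter than the median probe set. Whether every probe set name in the deposited table stands beside its own value could not be checked against a second source, and each gene value rests on that. The part of these features in the differences below was not tested.

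**Figure D1:**
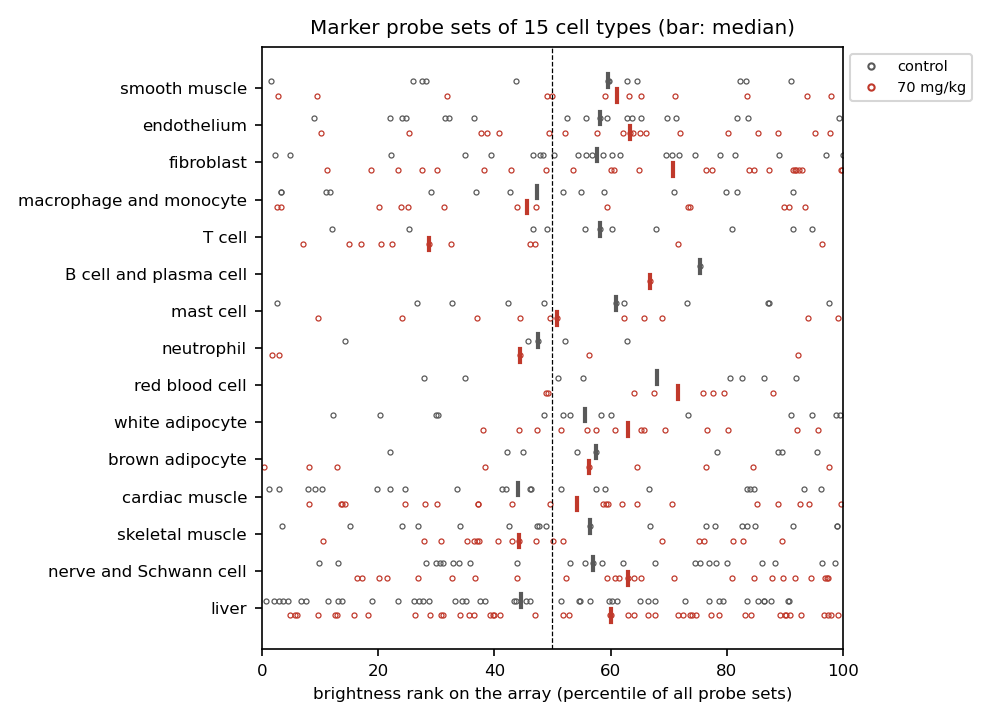
Brightness ranks of the probe sets of marker genes for 15 cell types on the control and the 70 mg/kg array. Each circle is 1 probe set at its percentile among all probe sets of that array, the bar is the list's median and the dashed line is the 50th percentile. The smooth muscle medians are 59.6% and 61.1%, and the fibroblast medians 57.7% in control and 70.6% at 70 mg/kg.

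Over all measured genes the comparison was wide and nearly balanced. Of 2462 genes, 19.7% (486) exceeded control by 2-fold or more, 23.2% (571) lay below it by as much, and 42.9% did either. The median difference was -0.06, and the middle 50% of genes ran from -0.91 to 0.78. Among the 754 genes on probe sets above the 75th percentile, a brighter floor of 659 chosen after the data were seen, 9.42% were higher and 21.1% lower. These shares are the background for the counts of gene groups below. For 1972 genes the value rests on 1 measured probe set.

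**Figure D2:**
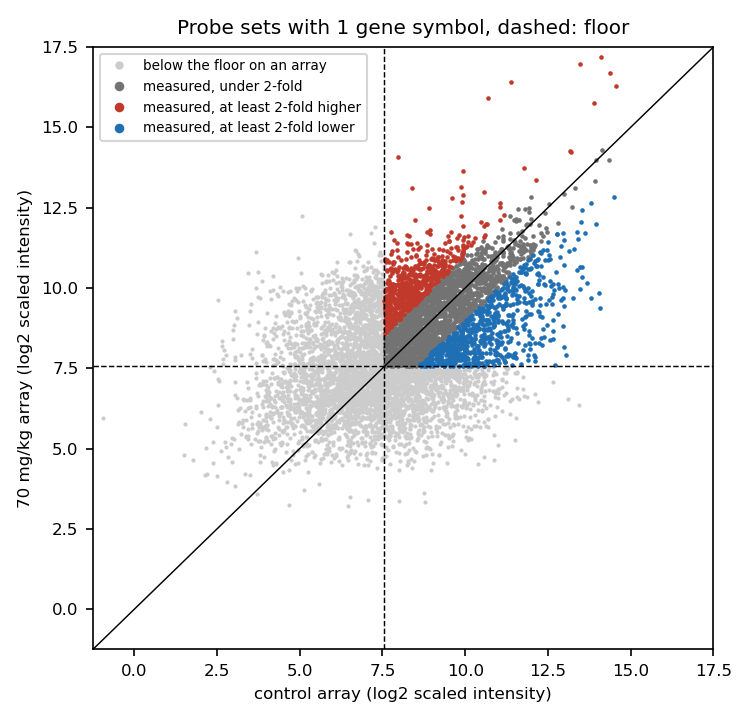
Scaled log2 intensity of each named probe set on the control array (horizontal) and the 70 mg/kg array (vertical), with the floor of 188 as dashed lines and equal values as the diagonal. Red and blue points are measured probe sets at least 2-fold higher or lower, and light grey points lay below the floor on at least 1 array.

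The repeat measurements in the comparison are those between probe sets of the same gene, made from different sequences or from the same sequence. Probe sets from different sequences were measured for 348 genes. In 145 of them all probe sets had the same sign, and in 203 (58.3%) they had opposite signs. The SD between probe sets of a gene was 1.44 on the log2 scale, pooled over these genes, which is larger than the 2-fold threshold of 1. Over the 532 pairs from different sequences, 270 (50.8%) had the same sign and their differences correlated with r = 0.03. Above the 55th percentile 133 of 242 such pairs had the same sign and r was 0.07, and above the 75th percentile 37 of 55 (67.3%) did and r was 0.35. Pairs made from the same sequence did not show this order, with the same sign in 58.6% of 198 pairs (r = 0.13), 55.6% of 90 (r = 0.14) and 12 of 27 (44.4%, r = -0.02) at these 3 floors. Those pairs come from genes, which are not independent replicates, and the 2 arrays are the same for all of them.

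**Figure D3:**
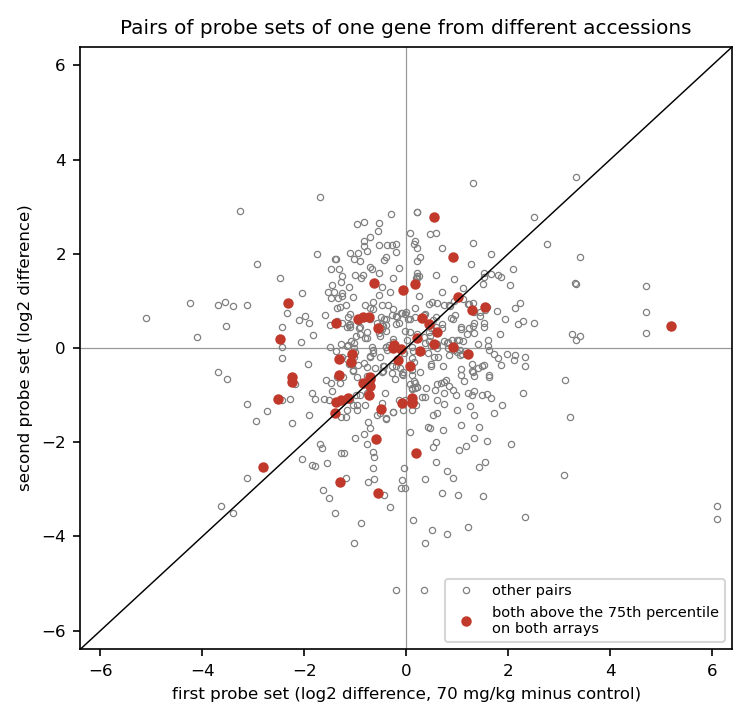
Log2 difference of 70 mg/kg minus control for both members of each pair of measured probe sets made from different sequences of the same gene (532 pairs). The points fill all 4 quadrants, and of the 55 bright pairs in red 37 have the same sign.

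Of the 348 genes with this repeat, 33 (9.48%) had every measured probe set at least 2-fold in the same direction, 13 higher and 20 lower. In 48 genes, more than in those 33, 1 probe set was at least 2-fold higher and another at least 2-fold lower. The 33 were picked by these same values, so their agreement is a description and no test. Most genes on the array lack a second measured sequence and could not enter.

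**Figure D4:**
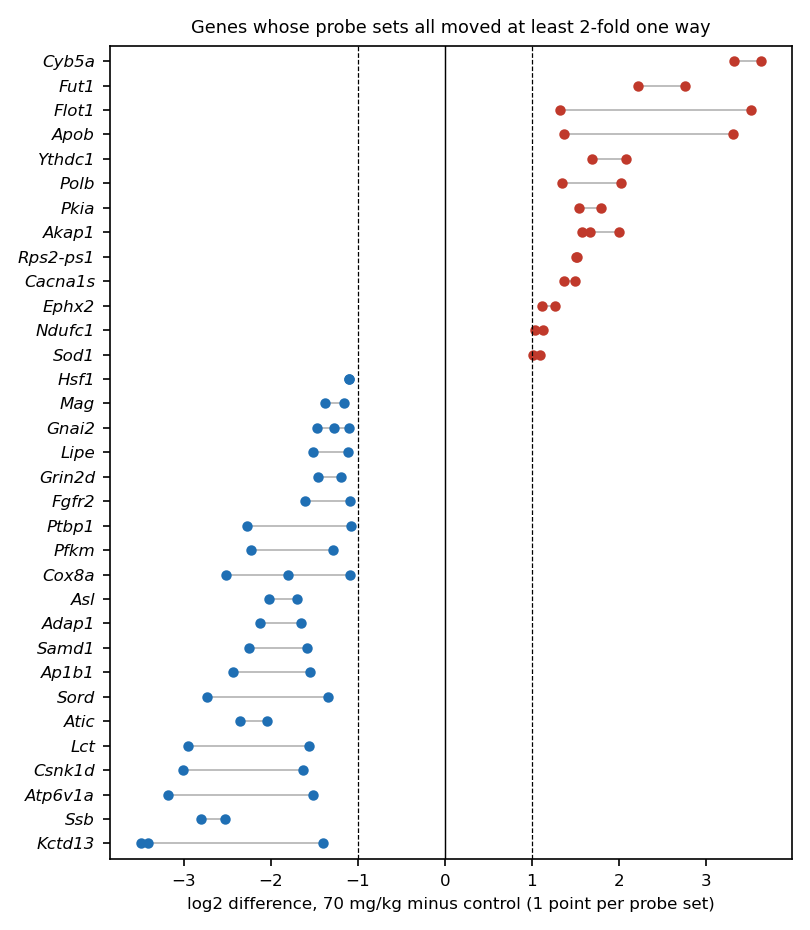
Log2 difference of 70 mg/kg minus control for each measured probe set of the 33 genes whose probe sets, from at least 2 sequences, were all at least 2-fold in the same direction. Grey lines join the lowest and highest probe set, and dashed lines mark 2-fold. Cyb5a has the highest median, with probe sets from 3.33 to 3.63, and Kctd13 has the lowest median, with probe sets from -3.49 to -1.40.

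Among those higher are genes of electron transfer, fatty acid epoxide breakdown and superoxide removal. Cytochrome b5 (Cyb5a) passes electrons to cytochromes P450 and to fatty acid desaturases in the endoplasmic reticulum. Its 3 probe sets had intensities of 316, 231 and 91.8 in control, 714, 821 and 301 at 35 mg/kg and 3169, 2872 and 3283 at 70 mg/kg. All 3 were highest at 70 mg/kg, and the 2 that were measured gave differences of 3.33 to 3.63. Soluble epoxide hydrolase (Ephx2), which opens fatty acid epoxides, was higher by 1.19 (1.12 to 1.27). The remaining 2 Ephx2 probe sets crossed the floor in the same direction, from 33.8 to 4804 and from 13.3 to 1444. Sod1, the cytosolic superoxide dismutase, was bright everywhere, with probe sets at 9490.1 and 9169 in control, 28325 and 28154 at 35 mg/kg and 19098 and 19515 at 70 mg/kg. Both gave just over 2-fold, 1.01 to 1.09, and were brighter still at 35 mg/kg, while another Sod1 probe set stayed below the floor on all 3 arrays. Ndufc1, an accessory subunit of respiratory complex I, was higher by 1.08 (1.04 to 1.12).

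The others that were higher have varied roles. Fut1, which adds fucose to cell surface glycans, was at 2.49 (2.22 to 2.76), although another, at 268 in control, was under the floor at 70 mg/kg (143). Flotillin 1 (Flot1), a scaffold of membrane rafts, was at 2.42 (1.32 to 3.51), and 1 of its probe sets went from 11378 through 69981 to 129929. Apolipoprotein B (Apob), the structural protein of lipoproteins made in liver and gut, was at 2.34 (1.37 to 3.31). Its other 3 probe sets lay below the floor in control, and of these the 70 mg/kg values were 146, 374 and 642. DNA polymerase beta (Polb), which fills gaps in base excision repair, was at 1.69 (1.35 to 2.03). The protein kinase A inhibitor Pkia was at 1.67 (1.55 to 1.80), and the anchoring protein Akap1, which tethers that kinase to mitochondria, was at 1.66 (1.58 to 2.01). Ythdc1, a nuclear reader of methylated adenosine in RNA, was at 1.89 (1.69 to 2.09), and the skeletal muscle calcium channel subunit Cacna1s at 1.43 (1.37 to 1.50). The 2 probe sets annotated to Rps2-ps1, at 1.51 to 1.52, match a pseudogene of a ribosomal protein gene, and they may report the parent gene as well.

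The genes lower on all their sequences include several enzymes of central metabolism. Phosphofructokinase of muscle (Pfkm), which commits glucose to glycolysis, had probe sets at 1757 and 1619.8 in control, 1547 and 1025 at 35 mg/kg and 719 and 346 at 70 mg/kg. Both probe sets were lowest at 70 mg/kg, with differences of -2.23 to -1.29. Sorbitol dehydrogenase (Sord), of the polyol pathway, was at -2.04 (-2.74 to -1.34). Cytochrome oxidase subunit Cox8a was lower on 3 sequences, from 663, 6164 and 7026 in control to 191, 1079 and 3301 at 70 mg/kg, with differences of -2.51 to -1.09, and its last probe set crossed below the floor. Argininosuccinate lyase (Asl), which releases arginine, the substrate of nitric oxide synthase, was at -1.86 (-2.03 to -1.70). At 35 mg/kg its probe sets stood at 1252 and 1528, above control (735 and 1022), and at 70 mg/kg at 227 and 251, close to the floor. Atic, of purine synthesis, was at -2.20 (-2.35 to -2.04). The hormone-sensitive lipase Lipe, which releases fatty acids from stored fat, was at -1.31 (-1.52 to -1.11).

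Others lower on every measured sequence serve RNA, membrane traffic and signalling. The RNA-binding La protein Ssb, which protects new RNA polymerase III transcripts, went from 4925 and 6449.6 in control through 1367 and 1694 at 35 mg/kg to 706 and 1115 at 70 mg/kg, differences of -2.80 to -2.53. Its other probe set went the other way, from 25.4 to 428, and was not measured in control. The splicing repressor Ptbp1 was at -1.67 (-2.27 to -1.07), with a further probe set going from 49.5, below the floor, to 275. Kctd13, an adaptor for a ubiquitin ligase, had the largest decrease of this kind at -3.41 (-3.49 to -1.40). Atp6v1a, the catalytic subunit of the vacuolar proton pump, was at -2.35 (-3.18 to -1.52), and its other probe set, at 1639 in control, was under the floor at 70 mg/kg (60.9). The clathrin adaptor subunit Ap1b1 was at -1.99 (-2.44 to -1.55), the casein kinase Csnk1d at -2.32 (-3.01 to -1.63) and the fibroblast growth factor receptor Fgfr2 at -1.35 (-1.61 to -1.09). Samd1 (-1.92), Adap1 (-1.89) and the intestinal lactase gene Lct (-2.25) also belong here. The other 4 genes, Grin2d, Gnai2, Mag and Hsf1, had medians of -1.32, -1.28, -1.27 and -1.10.

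Where probe sets of a gene disagreed, the gap could exceed any difference above. The tropomyosin Tpm1 had a probe set that went from 251 in control through 5821 to 17141 at 70 mg/kg, and another that went from 5230.0 through 2152 to 423. For alkaline phosphatase (Alpl) the intensities went from 21052 to 105306 on 1 probe set and from 3559.9 to 297 on the other. Ift46 (-3.27 to 2.92), Gipc1 (-2.70 to 3.11) and the membrane skeleton adducin Add1 (-5.12 to 0.64) complete the 5 widest splits. A median over such probe sets describes neither. Of the genes picked for naming, 261 were at least 2-fold higher or lower. Of these, 19 changed sign when dimmer probe sets were let in or when probe sets were chosen another way. Under another scaling of the arrays 0 did so. The scaling did move the median of all genes from -0.06 to 0.04.

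Grouped by function, the shares of lower genes were largest in the tricarboxylic acid cycle and fatty acid oxidation lists. Of 12 measured genes of fatty acid oxidation and ketone metabolism, 8 were at least 2-fold lower and 1 higher, against 23.2% lower and 19.7% higher over all genes, and the list's median was -1.52. Carnitine carries long fatty acids into the mitochondrion, where a cycle of dehydrogenases, hydratases and thiolases cuts them into acetyl units. The carnitine enzymes Cpt1b (-2.98) and Cpt2 (-1.11) and the carnitine carrier Slc25a20 (-1.93) were lower, as were the isomerases Eci1 (-3.39) and Ech1 (-2.23) and the dehydrogenases Hadh (-2.25) and Acads (-1.03). Hadha (-2.32) had probe sets from -4.24 to 0.96. Cpt1b, Eci1, Ech1 and Hadh each rest on 1 measured probe set. Of 2 genes in the list measured on different sequences, Hadha and Acsl1 (-0.83 to 2.68), 0 had the same sign throughout. The ketone body enzyme Bdh1 was at 1.05, just over 2-fold. The measured probe set of Eci1 went from an intensity of 2493 in control and 467 at 35 mg/kg to 238 at 70 mg/kg, while its other 3 were below the floor at 70 mg/kg. Hadh went from 1070.3 and 308 to 225. The list's median ran from -1.93 to -0.53 over the fixed alternatives, and above a floor at the 75th percentile 2 genes remained, 0 of them 2-fold.

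The promoters of 3 of these lower genes are shown because the genes were lower together. RefSeq's promoter table for the GRCr8 assembly held 6 of the 8 lower genes, and the sequences below are the 250 bases before the annotated start, 5′ to 3′ on the gene's strand. Capitals mark the letters of the GC box GGGCGG, the CCAAT box CCAAT and the nuclear receptor core motif AGGTCA, each searched on both strands, and no marked matches overlap in these 3 windows. The windows are chr10:13961000-13961249 (+ strand) for Eci1, chr2:222504447-222504696 (- strand) for Hadh and chr8:118243323-118243572 (+ strand) for Slc25a20.
Eci1: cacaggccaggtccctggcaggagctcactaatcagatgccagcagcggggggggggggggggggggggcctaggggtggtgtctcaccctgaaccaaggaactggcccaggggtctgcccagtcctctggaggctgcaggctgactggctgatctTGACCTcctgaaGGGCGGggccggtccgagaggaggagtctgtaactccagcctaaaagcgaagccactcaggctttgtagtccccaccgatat
Hadh: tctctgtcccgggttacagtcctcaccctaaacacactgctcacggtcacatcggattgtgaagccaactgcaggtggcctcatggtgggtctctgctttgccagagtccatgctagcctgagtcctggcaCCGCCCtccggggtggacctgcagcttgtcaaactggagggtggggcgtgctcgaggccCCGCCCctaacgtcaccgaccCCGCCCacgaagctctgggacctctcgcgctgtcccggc
Slc25a20: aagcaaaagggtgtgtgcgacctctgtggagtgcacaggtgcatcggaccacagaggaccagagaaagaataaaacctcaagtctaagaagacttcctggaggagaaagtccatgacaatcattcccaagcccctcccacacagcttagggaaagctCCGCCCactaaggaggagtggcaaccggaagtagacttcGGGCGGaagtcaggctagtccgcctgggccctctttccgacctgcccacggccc
All 6 windows held a GC box, as did 53.8% of 1982 windows of measured genes and 32.4% of 27457 windows in the table. A CCAAT box was in 1 of the 6 (34.3% of all windows), and AGGTCA in 1 of the 6, that of Eci1 (13.7% of all windows). These matches describe letters and are not evidence of binding.

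The tricarboxylic acid cycle and pyruvate entry list pointed the same way on few genes, with 4 of 5 measured genes at least 2-fold lower and 0 higher, and a median of -1.26. They were citrate synthase (Cs, -2.17), the pyruvate dehydrogenase subunit Pdha1 (-1.56), the malate dehydrogenase Mdh2 (-1.26) and pyruvate carboxylase (Pc, -1.10). Each rests on 1 measured probe set, and another of Pdha1 went from 157 to 552, so that its value was 0.13 with the floor at the 5th or the 25th percentile. The remaining gene, the acetyltransferase Dlat of the pyruvate dehydrogenase complex, was at -0.89 (-1.14 to -0.63). Another 10 genes of this list on the array were not above the floor on both arrays. The fatty acid and triglyceride synthesis list, which also holds the lipases Lipe and Lpl, had 5 of 11 genes lower and 0 higher. Those lower were the acyltransferases Gpam (-1.68) and Dgat1 (-1.67), Lipe, the glycerol phosphate dehydrogenase Gpd1 (-1.18) and fatty acid synthase (Fasn, -1.15). The list's median was -0.48, but 0.48 once probe sets down to the 5th percentile were let in, where Gpam was at 0.48. Lipoprotein lipase (Lpl), which draws fatty acids from blood, was at 0.93 with its 3 probe sets at 0.45 to 1.21.

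Sugar use was mixed, with 5 of 16 glycolysis and lactate genes lower and 2 higher. Hexokinase 2 (Hk2, -2.20), the phosphofructokinases Pfkm and Pfkl (-1.43), and enolase (Eno1, -1.23) were lower, while lactate dehydrogenase B (Ldhb, 2.75) and aldolase A (Aldoa, 1.27) were higher. The remaining lower one, the insulin-responsive glucose transporter Slc2a4, had a median of -1.25 over 2 opposed probe sets (-3.39 to 0.89). In the respiratory chain and ATP synthase 5 of 17 genes were higher and 4 lower. The 4 measured complex I subunits of the list, Ndufa8 (2.87), Ndufa9 (2.88), Ndufs1 (2.75) and Ndufv2 (1.59), were higher, as was the oxidase subunit Cox5a (1.37). The ATP synthase subunits Atp5f1d (-2.27) and Atp5f1b (-1.63) and the oxidase subunits Cox8a and Cox6c (-1.29, probe sets at -3.55 to 0.97) were lower. All 4 complex I genes of the list rest on 1 probe set each. Outside the list, Ndufc1 was higher, while the subunits Ndufa6 (-0.85 to 0.11) and Ndufb8 (-0.98 to 0.47) had probe sets of both signs. Amino acid and one-carbon metabolism had 6 of 23 genes lower and 3 higher. Those lower were the creatine kinase Ckb (-4.19), Asl, glutamate dehydrogenase (Glud1, -1.90), serine dehydratase (Sds, -1.88), isovaleryl-CoA dehydrogenase (Ivd, -1.25) and glutamine synthetase (Glul, -1.21, with 3 probe sets at -2.24 to 0.18), and the methyltransferase Gnmt (1.79) was among those higher. Glud1 turned to 0.93 and Sds to 0.15 with the floor at the 5th or the 25th percentile.

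Skeletal muscle and fat also burn fatty acids, and their markers are set beside this group. Of 7 measured skeletal muscle markers 4 were at least 2-fold lower and 1 higher, with a median of -1.30. The calcium store protein Casq1 (-2.90), Myod1 (-2.41), skeletal actin (Acta1, -1.96) and the embryonic myosin Myh3 (-1.30, 3 probe sets at -2.84 to -0.74) were lower, and Myh1 was at 1.51. The summed intensity of all 19 skeletal muscle probe sets was 21019 in control, 17695 at 35 mg/kg and 7330.4 at 70 mg/kg. Casq1, on 1 probe set, held 6306, 1508 and 842 of these sums. The median rank of the 19 was 56.5% in control and 44.2% at 70 mg/kg. Ranks of single markers went both ways, with Tnni1 from 76.3% to 28.0%, Ckm from 83.4% to 89.5% and Atp2a1 from 24.2% to 68.9%. For white fat, 2 of 4 measured markers were lower (Lipe and Slc2a4, which the fuel lists also hold), 0 higher, and the sums of 14 probe sets were 20408, 17914 and 8283. A single probe set of leptin (Lep) held 8513, 4266 and 243 of these sums, and the median rank of the white fat probe sets was 55.7% in control and 63.0% at 70 mg/kg. For brown fat, the heat-making uncoupling protein Ucp1 (2.10) and the deiodinase Dio2 (1.04) were higher among 5 measured markers and Cpt1b, counted above, was lower. The sums of 9 probe sets were 7316, 6552 and 5267, and 8 of them lay above the floor in control and 5 at 70 mg/kg. Cidea, so not measured, went from a rank of 88.7% in control to 0.44% at 70 mg/kg, and the other Cpt1b probe set from 54.3% to 8.1%. Another Ucp1 probe set was at 207 in control and 182 at 70 mg/kg. Cardiac muscle markers had 3 of 9 higher and 1 lower. Atrial natriuretic peptide (Nppa, 2.97) led those higher, and the ventricular light chain Myl2 (-1.54) was the lower one. The part of these tissues in the fuel result was not tested.

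Both microsomal electron donors to the cytochromes P450 were higher, and the oxidases themselves were mixed. Of 34 measured genes in the cytochrome P450 family list, 10 (29.4%) were at least 2-fold higher and 7 (20.6%) lower, against 19.7% and 23.2% over all genes, with a median of 0.35. Cytochrome P450 reductase (Por), the donor for all microsomal P450 enzymes, was at 2.50 with 3 probe sets at 0.54 to 2.77, and Cyb5a, the second donor, is described above. The fatty acid hydroxylases Cyp4a3 (3.97) and Cyp4a1 (1.36, 3 probe sets at 0.17 to 3.33) were higher, and Cyp4a8 (-1.48) was lower. These Cyp4a genes are close copies, and probe sets may not tell them apart. Cyp3a9 (-1.77) and Cyp2a3 (-1.66) were the lowest. Among the 11 genes of the list above the 75th percentile floor, 5 were higher and 2 lower. Of 13 measured liver markers, set beside this group, 4 were higher and 1 lower (Serpina1, -1.43), with a median of 0.61. Those higher were Apob, the apolipoprotein Apoc3 (1.41), albumin (Alb, 1.03) and fibrinogen alpha (Fga, 1.19). Alb rests on 1 probe set, and its others went from 236, 218 and 113 to 145, 167 and 484. Of all 46 liver probe sets, 25 lay above the floor in control and 30 at 70 mg/kg. Both Otc probe sets fell, from ranks of 38.4% and 67.6% to 6.0% and 5.8%. So did both of Ttr, from 59.8% and 27.8% to 13.0% and 4.9%. The sums of the 46 probe sets were 18031 in control, 29800.5 at 35 mg/kg and 29992 at 70 mg/kg. The part of these markers in the P450 values was not tested.

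Defence against acrolein and peroxide showed no common direction. In the glutathione and electrophile list 7 of 16 genes were higher and 7 lower, a larger share on both sides than over all genes, and the median was -0.04. Glutathione synthetase (Gss, -3.63) and glutathione reductase (Gsr, -1.58), which make and recycle glutathione, were lower, as were the microsomal transferases Mgst2 (-1.99) and Mgst3 (-1.61) and the transferases Gstm7 (-1.15) and Gstt1 (-1.01), while the transferases Gstm2 (2.88), Gstm1 (1.94), Gstk1 (1.70) and Mgst1 (1.63) and the thioredoxin reductase Txnrd1 (1.39) were higher. Without probe sets of less specific types the list's median was -1.27, and above the 75th percentile floor it was 1.12. Superoxide and peroxide enzymes had 3 of 13 higher and 2 lower, and amine and aldehyde enzymes 1 of 12 higher and 2 lower. The mitochondrial proteins Sod2 (3.46), which removes superoxide, and Txn2 (-4.70), a thioredoxin, stood at opposite ends of the former. In the latter, the aldehyde dehydrogenase Aldh7a1 (1.06) was higher and the carbonyl reductase Cbr1 (-1.59) and the formaldehyde-clearing Adh5 (-1.51) lower, but Cbr1 turned to 0.32 with lower floors. Within 2-fold lay the peroxidase Gpx3 (-0.55), the extracellular dismutase Sod3 (0.29) and monoamine oxidase A (Maoa, 0.78). The peroxidase Gpx1 was at 0.24 on its measured probe set, while the others dropped under the floor, from 1901 to 97.3 and from 207 to 87.8.

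The arterial wall's own genes were near the background. Collagens and structural matrix had 7 of 25 genes higher and 5 lower, with a median of 0.16. Beside Col1a1 and fibronectin, which were higher, tenascin C (Tnc) was at 1.35, the elastic fibre organiser fibulin 5 (Fbln5) at 1.33 and fibromodulin (Fmod), which binds collagen fibrils, at 1.29. The proteoglycan biglycan (Bgn) was lower on both its probe sets (-3.71 to -0.89), as were the laminin chain Lamc1 (-2.54) and the collagen chains Col5a1 (-2.04), Col10a1 (-1.75) and Col15a1 (-1.27). Col1a1 went from 338, 572, 778 and 877 in control to 8777, 1436, 977 and 1489.8 at 70 mg/kg, so all 4 probe sets were higher but by very different amounts. Among matrix proteases and their inhibitors 13 of 16 genes were within 2-fold. The metalloprotease inhibitor Timp1 was lower (-1.53), from 716 in control and 1331 at 35 mg/kg to 247, while stromelysin (Mmp3, 1.18) and cathepsin C (Ctsc, 1.67) were higher. Gelatinase A (Mmp2) was at -0.73 on 1 probe set, and another went from 863 to 182, below the floor. Integrins, cadherins and focal adhesion had 5 of 18 lower and 2 higher, with syndecan 3 (Sdc3, -2.27), the actin crosslinker Actn4 (-1.38), syndecan 1 (Sdc1, -1.25) and N-cadherin (Cdh2, -1.18) below and the collagen receptor chain Itga1 (1.91) above. Cdh2 was at 0.23 with the 5th percentile as floor.

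Contractile genes did not move together. In that list 3 of 12 measured genes were higher and 2 lower, and the median was -0.14. The lower ones were Kcnmb1 (-1.66) and Tpm1 (-3.35), whose 3 measured probe sets ran from -3.63 to 6.09. The smooth muscle actin Actg2 was at 1.32, and the smooth muscle actin Acta2 had opposed probe sets, at 0.69 and -0.73. Transgelin (Tagln), an early marker of the contractile state, was at -0.84 with both probe sets lower. They went from 414 and 922 in control through 174 and 483 at 35 mg/kg to 257 and 462. Of the cytoskeleton list 4 of 21 were higher and 3 lower, among them thymosin beta 4 (Tmsb4x, 1.90), Arpc1b (1.60, both probe sets at 0.61 to 2.59), which is a subunit of the actin-nucleating complex, on the higher side and beta tubulin (Tubb5, -2.82) and the myosin light chain Myl12a (-3.66) on the lower. Cytoplasmic actin (Actb) was at 0.25. Calcium handling had 7 of 27 lower and 4 higher, and here 2 release channels of the calcium store were lower, Itpr1 (-3.27) and Itpr3 (-2.84, probe sets at -3.58 to -2.09). Itpr1 rests on 1 of 5 probe sets, and another went the other way, from 118, below the floor, to 588, so that its value was 0.45 with a floor at the 5th percentile. The pump Atp2a3 (-1.70) and the exchanger Slc8a2 (-1.30) were lower too, while phospholamban (Pln, 2.36), which restrains the pump, and the membrane pump Atp2b3 (1.08, 0.93 to 1.22) were higher.

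Ion channels were split without a common direction. Of 44 measured calcium, sodium and potassium channel genes, 14 were higher and 10 lower. The pore of the vascular ATP-sensitive potassium channel, Kcnj8, was at -2.23 on its single probe set, and the measured probe set of its sulfonylurea receptor Abcc9 was at 1.25, but the other Abcc9 probe sets crossed the floor in both directions, from 553 to 86.1 and from 80.6 to 234. For the large-conductance calcium-activated channel, the smooth muscle beta subunit Kcnmb1 was at -1.66, and the pore Kcnma1 was at 0.96 on 1 probe set and likewise crossed the floor in both directions on others, from 262 to 80.5 and from 76.6 to 269.7. The pore of the vascular L-type calcium channel, Cacna1c, was at 0.59, with all 3 of its probe sets at 0.01 to 0.95. Kcnn1 (2.34), Clcn3 (2.22) and Kcnc1 (2.08) were the highest. Solute carriers and ion pumps had 14 of 58 higher and 14 lower, with the mitochondrial adenine nucleotide carrier Slc25a5 (2.09) above and the iron carrier Slc11a2 (-2.21) and the glucose carrier Slc2a3 (-2.14) below. ABC transporters had 3 of 9 higher and 2 lower, with Tap2 (2.06) and the drug pump Abcb1a (1.90) highest and Abcc6 (-2.95), whose loss in people leads to calcified elastic fibres, lowest. Neurotransmitter receptors and synapse genes had 9 of 51 higher and 10 lower, near the background shares.

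Genes that set vascular tone differed in both directions. Of 35 measured vasoactive hormones and receptors, 9 were at least 2-fold higher and 4 lower, with a median of 0.24. Over all genes 19.7% were higher and 23.2% lower. Among those lower was the angiotensin-converting enzyme Ace at -1.16, from 1494 in control and 1549 at 35 mg/kg to 667 at 70 mg/kg. The angiotensin receptor Agtr1a was at -1.29, from 2471 in control and 1277 at 35 mg/kg to 1008, but its other 3 probe sets, dimmer and not measured, went from 66.7, 183 and 52.1 to 148, 239 and 80.2, and with the floor at the 5th percentile its value was 0.51. The urotensin receptor Uts2r (-1.44) and the peptidase neprilysin (Mme, -1.45, both probe sets at -1.90 to -0.998), which degrades natriuretic peptides and endothelin, were lower. Endothelin 1 (Edn1), the endothelial constrictor peptide, was at -0.56. The natriuretic peptides Nppa (on 1 of its 4 probe sets) and Nppb (1.52) were higher. So were the serotonin receptors Htr2a (1.82) and Htr2b (1.34) and the adenosine receptor Adora2a (1.55), which relaxes arteries. Of the list's 6 genes measured on different sequences, 1 had the same sign throughout.

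In the polyamine, arginine and nitric oxide list 5 of 20 genes were higher and 3 lower. Apart from antizyme (Oaz2, 5.04), these included the arginine carrier Slc7a1 (1.33), the pteridine reductase Qdpr (1.63), which regenerates the cofactor of nitric oxide synthase, and Gucy1a1 (1.15), while the other subunit of the nitric oxide receptor, Gucy1b1, was at -1.01 and the pteridine enzyme Spr at -1.20. Qdpr was at -0.068 with the 5th percentile as floor. Endothelial nitric oxide synthase (Nos3) had a median of 1.52, but its 6 probe sets did not agree. A further probe set crossed below the floor, from 451 to 178, and another rose in rank from 24.2% in control to 66.0% at 70 mg/kg. Of the 3 that were measured, the intensities went from 323 to 1177, from 352 to 1007 and from 367 to 287. Ornithine decarboxylase (Odc1), the first step of polyamine synthesis, was at -0.05 on 1 probe set, and its other went from 95.5, below the floor, to 618. Antizyme 1 (Oaz1) went from 96.2, below the floor, through 267 at 35 mg/kg to 947 at 70 mg/kg. Prostanoid and lipoxygenase genes had 5 of 14 higher and 2 lower, among them the platelet-activating factor receptor Ptafr (2.32) and the prostaglandin receptor Ptger2 (1.19). Cyclooxygenase 1 (Ptgs1) was at -0.87, and prostacyclin synthase (Ptgis), abundant in arterial wall, went from 96.4, below the floor, through 764 to 1134.

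Kinase cascades and their phosphatases had 13 of 38 genes (34.2%) lower and 7 (18.4%) higher, against 23.2% and 19.7% over all genes, with a median of -0.39, which was 0.19 with a floor at the 5th percentile. At that floor Mapk14 was at 1.43 and Prkaca at 0.15. The lower ones include several steps from growth receptors to mitogen-activated kinases, namely Nras (-1.99), Araf (-2.53), Map2k1 (-1.58), Map3k1 (-1.54) and the stress kinases Mapk8 (-1.54) and Mapk14 (-1.38, 3 probe sets at -1.41 to 1.89). The lipid kinase subunit Pik3cd (-2.44) and the protein kinase A subunits Prkaca (-1.69) and Prkar2a (-1.89) were lower too. Higher were Map3k8 (1.97), Prkcd (1.86) and Map2k2 (1.17, both probe sets at 0.14 to 2.20). Above the 75th percentile floor 6 of 11 genes were lower and 3 higher.

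Growth factors and their receptors had 13 of 45 lower (28.9%) and 8 higher (17.8%), near the background shares. Receptors at least 2-fold lower were Pdgfra (-2.93), Fgfr1 (-2.09), Fgfr2, Ntrk2 (-1.94), Ntrk3 (-1.88), Erbb2 (-1.40), Erbb4 (-1.04) and the endothelial receptor Flt1 (-1.20), and those at least 2-fold higher were Cntfr (3.64), Fgfr4 (1.35) and Igf2r (1.28). Of the ligands, Fgf1 (2.14), Fgf5 (2.21), Angpt2 (1.86), which loosens endothelium, and Pdgfb (1.64), a mitogen of smooth muscle, were higher, and Gas6 (-2.72), Fgf9 (-2.68) and Gdnf (-2.35) lower. Pdgfra rests on 1 of its 4 probe sets. The others went from ranks of 22.3%, 55.7% and 39.4% in control to 27.5%, 38.3% and 77.5% at 70 mg/kg. Erbb4 turned to 0.11 and Fgfr4 to -0.11 with the 5th percentile as floor. Of this list's 16 genes measured on 2 or more sequences, 3 had the same sign throughout. In TGF-beta, BMP, Wnt and Notch 7 of 32 were higher and 4 lower. The Notch receptor Notch1 was at -1.98 and its target Hes1 at 1.30 (0.94 to 1.67), and the kinase Gsk3b, which marks beta-catenin for destruction, was at 2.02 but at -0.52 with that lower floor. G proteins, cyclases and phosphodiesterases had 8 of 32 higher and 6 lower, with Rgs9 (2.997) and Adcy5 (-4.18) at the ends. The other Adcy5 probe sets crossed the floor in both directions, from 344 to 154 and from 37.8 to 288. Gnai2, the inhibitory G protein subunit, was lower on all 3 probe sets (-1.47 to -1.10).

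Transcription factors of the immediate early and stress group had 7 of 29 genes higher and 5 lower. Hlf, a clock-related factor, had the highest value (3.20) on 1 probe set, but another went from 527 to 155, below the floor, and its value was -0.89 with the 5th percentile as floor. The members of the Egr family were split, Egr3 (1.79) and Egr2 (1.31) being higher and Egr4 lower on both probe sets (-3.13 to -0.44). The orphan receptor Nr4a3 was higher on all 3 probe sets (0.95 to 2.23), Id3 was at 2.51, and Myc (-1.99) and Junb (-1.98) were lower. Nuclear receptors and coregulators had 5 of 20 in each direction. The lipid sensor Ppard, with 3 probe sets at -2.48 to -0.94, the retinoic acid receptor Rara (-2.25 to -1.40) and the sterol sensor Nr1h2 (-1.31 to -0.97) were lower on every measured probe set, the vitamin D receptor Vdr was at -3.63, and Rxrg (0.56 to 1.62) was higher. The peroxisome proliferator receptor Ppara, which drives fatty acid oxidation genes and Cyp4a genes, was close to 0.

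Sterol synthesis and cholesterol uptake had 5 of 11 genes higher and 1 lower, with a median of 0.64. Cyp51 (2.30), Dhcr7 (2.08) and Mvk (1.64) were among those higher, each on 1 measured probe set. Cyp51 has 5 probe sets, and of those not measured 1 went from 92.4 to 911 and another from 78.2 to 49.3. The oxidase Msmo1 (1.44) and the isomerase Ebp (-1.49), which act between lanosterol and cholesterol, went opposite ways. Above the 75th percentile floor 0 genes of the list were measured. Cytosolic ribosomal proteins had 8 of 23 higher and 1 lower and a median of 0.56. Of the 4 measured on different sequences, Rps29 (0.47 to 5.20) and Rpl6 (0.09 to 0.55) were higher throughout, Rpl21 (-0.999 to -0.72) was lower throughout and the other was split. Most ribosomal protein genes have many processed pseudogenes, so their probe sets may not be specific. Translation factors had 2 of 10 higher and 1 lower, proteasome and ubiquitin genes 3 of 14 higher and 0 lower, among them Nedd8 (1.76) and the proteasome subunits Psmb4 (1.59) and Psmb2 (1.18). Heat shock and ER chaperones had 4 of 15 higher and 1 lower, the latter being Hsf1, the master activator of the heat shock genes, on both its measured probe sets (each -1.10). Splicing and RNA-binding proteins had 2 of 8 in each direction, the small nuclear ribonucleoprotein Snrnp70 (-2.83) and Ptbp1 being lower.

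Vesicle trafficking and small GTPases had 12 of 43 genes higher and 8 lower. The flotillins Flot1 and Flot2 (2.41) and the synaptic fusion protein Snap25 (2.37, both measured probe sets at 1.94 to 2.80) were higher. So were the GTPases Rab11b (1.64), Rab8b (1.58), Rab8a (1.52) and Cdc42 (1.21, 0.87 to 1.55). The adaptor subunits Ap1b1 and Ap3m2 (-1.47, -2.18 to -0.77), the GTPase Arf4 (-1.53) and the muscle caveolin Cav3 (-1.88, but 1.46 with the 5th percentile as floor) were lower. Lysosome and autophagy genes had 3 of 16 higher and 1 lower, Beclin 1 (Becn1, 1.79), which starts autophagosomes, and the proton pump subunit Atp6v0c (1.64) above and the phosphatase Acp5 (-1.78) below.

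Inflammation, immunity and clotting showed small counts. Cytokines, chemokines and complement had 7 of 27 higher and 6 lower. The monocyte attractant Ccl2 (1.14) and the interferon-induced chemokine Cxcl10 (1.93) were higher. The chemokine receptor Cxcr4 was lower on its 2 measured probe sets (-3.07 to -1.30), which were made from the same sequence. Its remaining probe set, made from another sequence and too dim in control to be measured, pointed the opposite way, with intensities of 37.2 in control and 411 at 70 mg/kg. Interferon response and antigen presentation had 3 of 17 higher and 4 lower, the inducible genes Irf1 (1.90) and Mx1 (1.76) and the peptide transporter Tap2 being above control and the class I genes RT1-S3 (-4.81) and RT1-CE16 (-3.996), members of a family of close copies, below it. In coagulation and platelets 2 of 8 went each way, with thrombomodulin (Thbd), an endothelial anticoagulant, lower on both probe sets (-1.58 to -0.68) and coagulation factor X (F10) at 2.37. Iron, heme and metal genes had 2 of 10 higher and 3 lower, the haemoglobin-binding protein Hp at -2.62 and the heme synthesis enzymes Alas2 (2.04) and Ppox (1.91) at the other end. Of leukocyte markers, 1 of 4 measured macrophage genes was higher (Fcgr2b, 1.61) and 1 lower (Lyz2, -1.91). Of mast cell genes, 2 of 7 were higher and 3 lower, including the proteases Mcpt4 (1.36) and Cma1 (-2.46). While 0 of 4 measured T cell genes were 2-fold in either direction, others fell below the floor. Of all 11 T cell probe sets, 9 lay above the floor in control and 4 at 70 mg/kg, and their median rank was 58.2% and 28.8%. Lck went from a rank of 94.6% to 20.5% and Cd8a from 80.8% to 22.5%, while Cd8b rose from 91.3% to 96.3% and a Cd3g probe set from 58.2% to 71.7%.

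Cell death and p53 genes had 4 of 13 lower and 2 higher, and a median of -0.57. The lower ones promote or restrain death. Bad (-1.78), Casp6 (-1.52) and Bcl2l11 (-2.21 to -0.65 on its 2 measured probe sets) promote it, and Mdm2 (-4.15) restrains p53. Mdm2 rests on 1 of its 4 probe sets. Casp2 (1.26) and the protective Bcl2l2 (1.05) were higher. Cell cycle, replication and repair had 7 of 23 higher and 3 lower. The mitotic kinase Aurkb (1.55), topoisomerase Top2a (0.47 to 2.42 on its 2 probe sets), the repair genes Polb and Mgmt (1.52) and the retinoblastoma gene Rb1 (1.80) were higher, and the base excision nuclease Apex1 (-2.81), the replication clamp Pcna (-1.94) and cyclin D1 (Ccnd1, -1.62) were lower. Pcna was at 1.06 with the 5th percentile as floor.

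**Figure D5:**
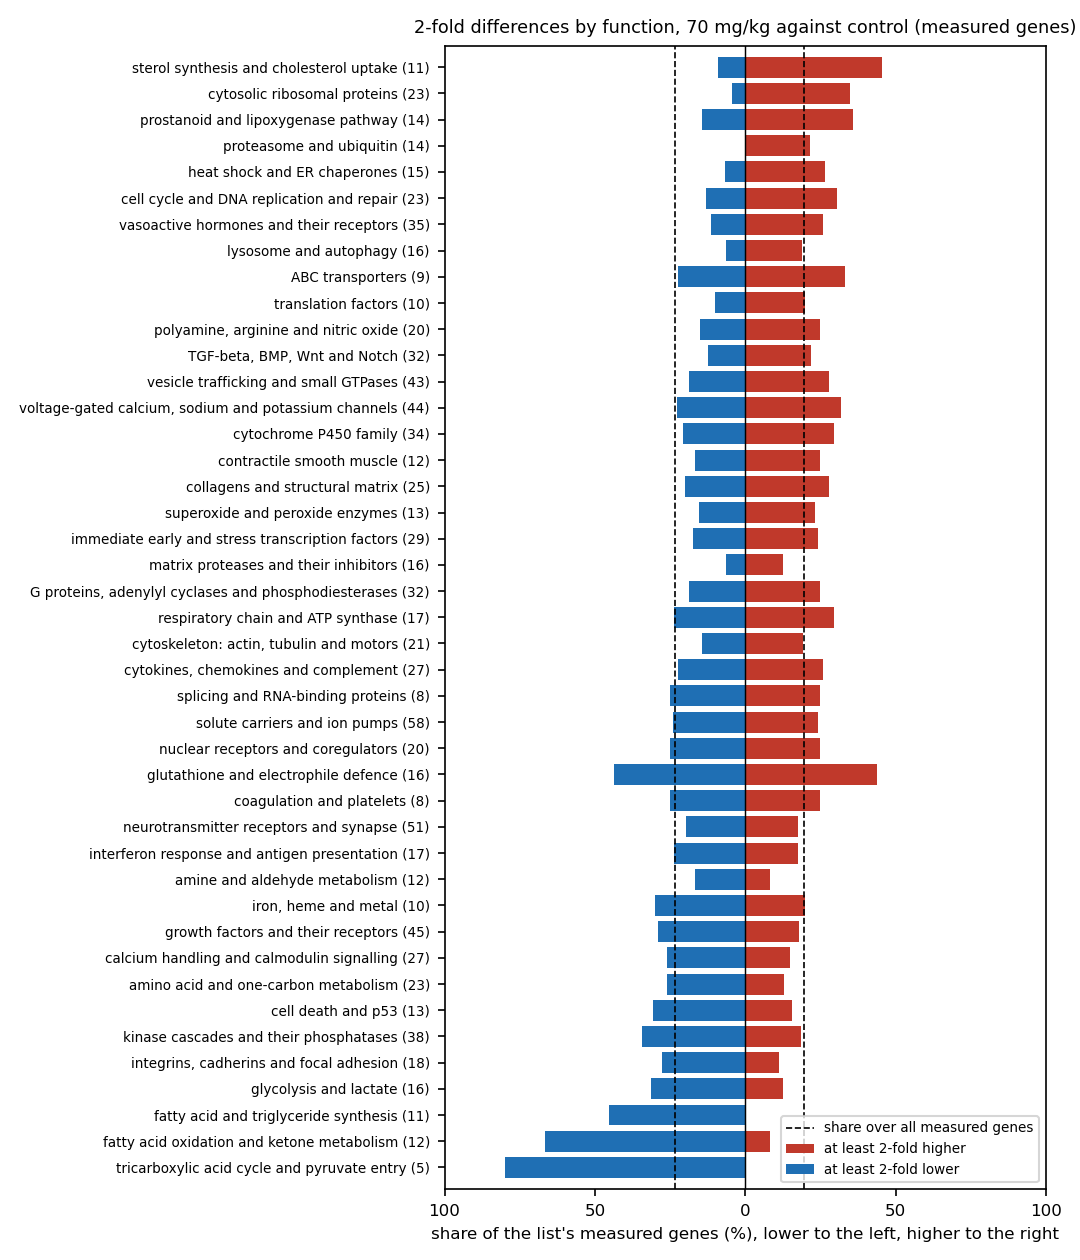
Share of the measured genes of each of 43 function lists that were at least 2-fold higher (right, red) or lower (left, blue) at 70 mg/kg than in control, with the number of measured genes in brackets. Dashed lines are the shares over all 2462 measured genes, 23.2% lower and 19.7% higher. The tricarboxylic acid cycle (4 of 5 lower) and fatty acid oxidation (8 of 12 lower) lists have the longest bars to the left, and sterol synthesis (5 of 11 higher) and glutathione defence (7 of 16 higher) the longest to the right.

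The other cell type lists were small. Endothelial markers had 1 of 8 measured genes higher, Nos3, and 2 lower, Flt1 and Thbd, with a median of -0.38. Of fibroblast markers 2 of 8 were higher and 1 lower, and of smooth muscle markers 2 of 5 were higher and 0 lower, calponin (Cnn1) at 2.86 and Actg2. Nerve and Schwann cell markers had 1 of 9 higher and 3 lower, with the myelin gene Mag lower on both measured probe sets (-1.38 to -1.15) and the neuronal filament Prph at -1.79. Red blood cell markers had 1 of 3 in each direction, and the band 3 anion exchanger Slc4a1 had all 3 probe sets lower (-1.32 to -0.24). The beta globin gene Hbb was not measured in control, at 122, and stood at 379 at 35 mg/kg and 742 at 70 mg/kg. For neutrophils 1 of 3 was higher, and the single B cell marker was at -0.43.

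Genes that crossed the floor give bounds, since the dimmer array gives no level. Of 1565 genes with more than 1 probe set, 61 (3.9%) had every probe set above the floor on 1 of the 2 arrays and below it on the other, all in the same direction. A probe set's bound is its brighter intensity over the floor, and the genes named here had the largest median of these bounds. Eif4h, a translation factor, was above the floor at 70 mg/kg on 3 probe sets, with intensities of 25.7, 102 and 59.1 in control and 731, 2341 and 709 at 70 mg/kg, and its lowest bound was 3.77-fold. In the same direction, the lowest bound was 2.78-fold for the peptide transporter Tap1, 1.86-fold for the amyloid precursor App, 3.14-fold for the membrane to actin linker Msn and 1.13-fold for Alox5ap, which presents arachidonate to lipoxygenase. In the other direction it was 4.36-fold for the secretase subunit Aph1a, 5.58-fold for the collagen lysyl hydroxylase Plod3 and 5.01-fold for the glutathione transferase Gstt2. For Gtf2ird1 and Apbb1 the lowest bounds were 1.56-fold and 1.18-fold, because their probe sets were of very unequal brightness in control, at 4734 and 293 for Gtf2ird1 and at 3008 and 222 for Apbb1.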

How the data were processed

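The deposited values are probe set intensities on a linear scale, from a rat oligonucleotide array, 1 array for each of 3 groups. Neither the labels nor the value table names the authors' software or scaling. The values show 2% trimmed means of 500.2 to 500.4 on the 3 arrays, and the deposited medians were 256.45 for control, 259.55 at 35 mg/kg and 284.45 at 70 mg/kg.

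Of 8799 probe sets, 59 control probe sets were left out. Gene symbols came from the platform's annotation, in which 7006 probe sets had 1 symbol, 308 several and 1426 none. Only those with 1 symbol were named, and 6985 of them were found by gene ID in the RefSeq gene table for GRCr8. Each array was scaled to the mean of the 3 medians, a shift of 0.06, 0.04 and -0.09 on the log2 scale for control, 35 mg/kg and 70 mg/kg. Probe sets above the 40th percentile of the pooled values on both arrays gave a log2 difference, and a gene took the median of its probe sets. With 1 array per group no test was possible, so a gene was called at a 2-fold difference. Depth does not apply to array intensities, and no columns were left unused.

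Genes to describe were picked by 5 rules. These took the 15 genes each way with the largest median among those whose probe sets from at least 2 sequence accessions were all 2-fold one way, up to 4 members of each of 58 gene lists with the largest difference, the 5 genes whose probe sets were farthest apart, the 5 largest bounds each way among genes that crossed the floor, and a set of vascular genes. Ednra, Mt1, Mt2A, Fth1, Hba1 and Adipoq of that set were on no probe set with 1 symbol and are not analysed here, and its Plat and Vim lay below the floor on at least 1 array. Not every gene so picked is described above. Among those left out are Camkk2 (3.30), Cabin1 (3.27), Chrna4 (3.10), Eln (0.91), Nrarp (-4.28), Shank2 (-3.99) and Ins2 (-3.90). Further list members were named to spell out a count, after their values were seen. The members and the lists were chosen with earlier results of these data known, so the lists are no independent evidence. The 125 genes in more than 1 list count in each.

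The alternatives were 3 other scalings, 3 other floors, 2 other rules for the probe sets and 1 other rule per gene, and a floor at the 75th percentile added after the data were seen. The steps were tested on simulated data in which all probe sets of a gene shared the same change and noise was small. In the real arrays the SD between probe sets of a gene was 1.44, so that test checks the arithmetic and not how well these arrays recover a change. Python 3.11.15, numpy 2.4.6, pandas 2.3.3 and matplotlib 3.10.9 were used.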

Additional observations from a re-analysis of the deposited data

Results flagged for a closer look

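The bacterial and phage spike-in probe sets, which the comparison leaves out, had a median ratio of 28.8 of the 70 mg/kg over the control array, and were singled out because they carry a signal in data outside the main measurement. Their intensities ran from 914.8 to 47886 in control and from 41367 to 1065440 at 70 mg/kg.

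Probe sets without a single gene symbol were also outside the comparison. Above the floor on control and 70 mg/kg lay 765 of them, and of these 154 exceeded control by 2-fold or more and 175 lay below it by as much, together 43.0%, against 42.9% of the named genes.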

How the results depend on the processing

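No paired analysis was possible because each group has 1 array, and for the same reason no replicate could be left out. The count of genes at least 2-fold either way was 1057 (486 higher, 571 lower), and it stayed within 1.5 times of that under the 3 other scalings, the floor at the 25th percentile and the 3 other treatments of probe sets. It moved with the other floors, to 2239 (1074 higher, 1165 lower) at the 5th percentile, 589 (256 higher, 333 lower) at the 55th and, in the floor chosen after seeing the data, 230 (71 higher, 159 lower) at the 75th, since a floor sets how many genes are measured. Of 2402 recomputed values of named genes, 2321 lay within the spread between probe sets, 56 lay outside it with the sign kept or with a value under 2-fold, and 25 changed the sign of a 2-fold difference. Without less specific probe sets, this was Add1 (-2.24, then 0.64). With a floor at the 5th percentile, these were Agtr1a (-1.29, then 0.51), Cav3 (-1.88, then 1.46), Cbr1 (-1.59, then 0.32), Cdh2 (-1.18, then 0.23), Erbb4 (-1.04, then 0.11), Fgfr4 (1.35, then -0.11), Glud1 (-1.90, then 0.93), Gpam (-1.68, then 0.48), Gsk3b (2.02, then -0.52), Hlf (3.20, then -0.89), Itpr1 (-3.27, then 0.45), Mapk14 (-1.38, then 1.43), Pcna (-1.94, then 1.06), Pdha1 (-1.56, then 0.13), Prkaca (-1.69, then 0.15), Qdpr (1.63, then -0.068), Sds (-1.88, then 0.15). With a floor at the 25th percentile, these were Cbr1 (-1.59, then 0.32), Erbb4 (-1.04, then 0.11), Glud1 (-1.90, then 0.93), Pdha1 (-1.56, then 0.13), Prkaca (-1.69, then 0.15), Sds (-1.88, then 0.15). With the brightest probe set per gene, this was Tpm1 (-3.35, then 6.09). The cause of each was not tested. A gene with 1 measured probe set, as 1972 genes have, keeps its value when the brightest is taken or a sequence is averaged first. For such genes these 2 settings could not move the value, so the 2321 are no measure of stability. No depth limits these values, but levels close to the floor have the least signal over background.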
